A study of Sus scrofa with 15 samples.

Results

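The leukocyte adhesion molecules examined here are 8 genes whose proteins let white blood cells attach to the vessel wall: ICAM1, VCAM1, SELE, SELP, SELPLG, ITGB2, ITGAL and CD44. The rule that picks their rows uses the gene symbol and no measured value. Of the 31908 pig genes in the count table, 6 were members, because 2 members, SELE and SELPLG, are not paired with an identifier in the symbol table used here and were not analysed. The samples were livers of male Duroc x Large White x Landrace piglets. The CON group received sterile saline, the LPS group received lipopolysaccharide (LPS, the outer membrane glycolipid of Gram-negative bacteria) at 80 μg/kg into the abdominal cavity, and the liver was taken 4 h later. Each group gave 3 libraries of polyadenylated, sonicated whole-liver RNA, namely the input fraction of an m6A immunoprecipitation experiment, and each value is a number of reads per gene.

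Leukocytes leave the blood in steps. Selectins on endothelium and platelets (E-selectin from SELE, P-selectin from SELP) catch passing cells by binding the mucin PSGL-1 (from SELPLG). Integrins on the leukocyte, such as LFA-1 made of the ITGAL and ITGB2 chains, then switch to a binding state and hold on to ICAM-1, while the integrin of ITGA4 and ITGB1 chains holds on to VCAM-1. In liver sinusoids rolling is rare, and CD44, the main receptor for the matrix sugar hyaluronan, is known to help neutrophils adhere there. ICAM1, VCAM1 and SELE are textbook targets of NF-κB in endothelium exposed to LPS, while P-selectin and the integrins are also regulated by release of stored protein and by changes of shape.

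Total counts ranged from 4348478 to 19967417 per library, and LPS replicate 3 was the deepest. LPS replicate 2 was closer to the CON libraries than to its own group. The correlation of its log2 CPM (read counts scaled to a common library size) was 0.916 to 0.939 to the CON libraries, 0.894 to LPS replicate 1 and 0.844 to LPS replicate 3. LPS replicates 1 and 3 correlated at 0.894 with each other and at 0.828 to 0.887 with the CON libraries. Values without LPS replicate 2 or 3 are given below where they change a call or a direction. As a sum, hepatocyte markers matched the liver label: all 10 were tested, and they summed to 59122 to 119187 CPM in every library. Of these markers, SERPINA1 did not match, at only 1.23 to 7.20 CPM.

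All 6 members passed the filter on low counts. None was called in the comparison of the LPS with the CON group by edgeR, where a call is an adjusted p below 0.05 and a fold above 1.5. Over all 12774 tested genes edgeR called 0.0548% higher and 0% lower, so this count of 0 members says little about the members. At an unadjusted p below 0.05, 1 member, CD44, was higher (6.18% of all tested genes) and 1 member, ITGAL, was lower (6.33%). The same genes were the only members whose LPS libraries all lay on one side of the CON libraries, a pattern held by 6.52% of tested genes on the higher side and 9.8% on the lower side. By DESeq2, CD44 was the only member called, beside 1.85% of genes higher and 0.951% lower. Without the filter on low counts, edgeR called 3 members higher, CD44, ICAM1 and VCAM1, beside 2.28% of genes higher and 1.48% lower. ICAM1 and VCAM1 had large fold changes that came from LPS replicate 3. SELP and ITGB2 overlapped between the groups.

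**Figure D1:**
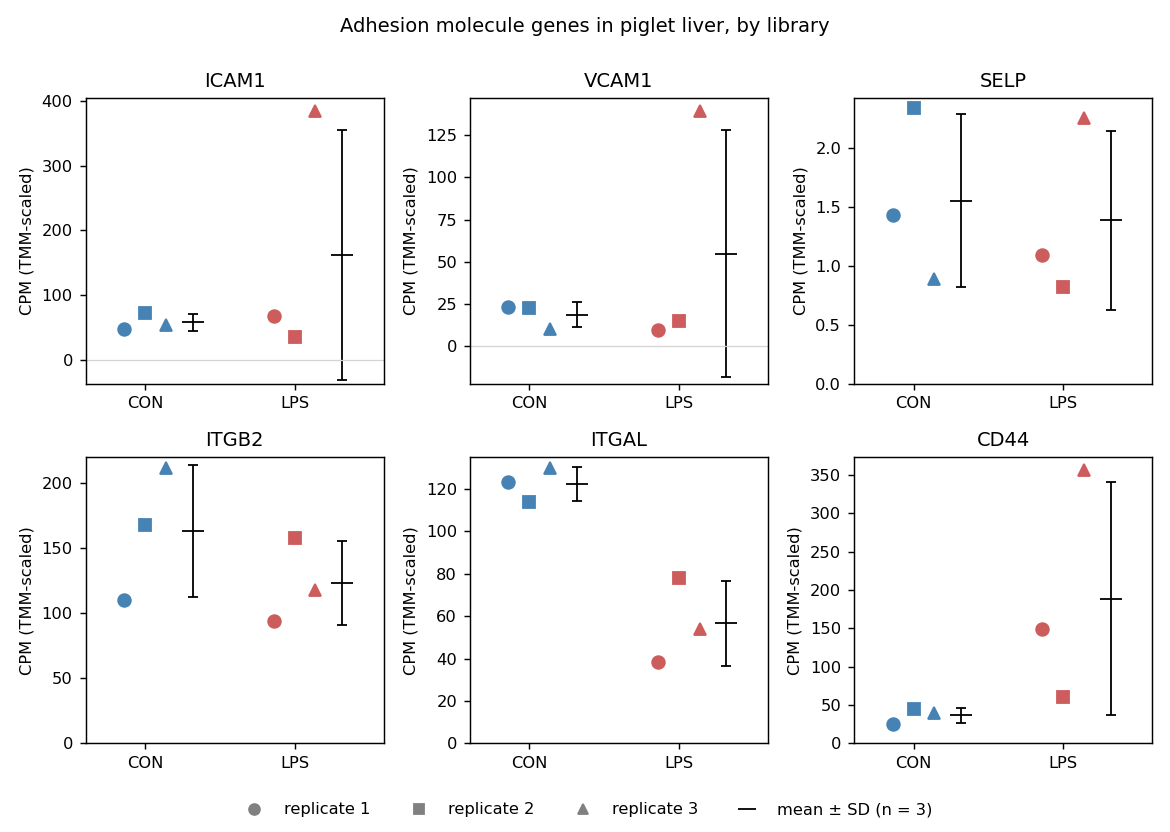
TMM-scaled CPM of the 6 members in each library, 1 panel per gene with its own linear axis, with points for single libraries and bars for the mean ± SD of 3 libraries. In ICAM1 and VCAM1 the LPS replicate 3 point stands at 384 and 139 CPM above all others and draws the SD below 0, whereas all CD44 points of the LPS group lie above, and all ITGAL points below, the CON group.

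ICAM1 (ENSSSCG00000013655, chr2:69097122-69108205, plus strand, 9 exon blocks; the pig genome build was not given in the sources used here) encodes the endothelial ligand of the integrins LFA-1 and Mac-1. It had 535, 469 and 549 counts in the CON libraries and 309, 218 and 5625 in the LPS libraries. Scaled for library size, that was 47.8, 73.3 and 54.3 CPM in the CON group and 67.4, 35.7 and 384 CPM in the LPS group. LPS replicate 1 lay inside the CON range, LPS replicate 2 below it and LPS replicate 3 far above it, so the groups overlapped. Relative to the CON mean of 58.5 ± 13.2 CPM (SD, n = 3), the LPS libraries stood at 1.15, 0.610 and 6.57 times. The log2 fold change was 1.48 (SE 0.76, edgeR adjusted p = 0.470). Without LPS replicate 3 it was -0.17 (edgeR adjusted p = 0.900), the opposite direction, in a fit that called 0.31% of tested genes higher and 0.151% lower and none of the members. Without LPS replicate 2, edgeR gave 1.96 with an adjusted p of 0.0738, and DESeq2 called it at 1.99 with an adjusted p of 0.00693, in a fit that called 5.57% of genes higher. With limma-voom, over all libraries, the log2 fold change was 0.76 (adjusted p = 0.690).

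VCAM1 (ENSSSCG00000006862, chr4:117496908-117511226, minus strand, 9 exon blocks), the endothelial ligand of the ITGA4 and ITGB1 integrin, followed ICAM1 in its dependence on 1 library. The CON libraries held 259, 145 and 102 counts, and the LPS libraries 45, 93 and 2041. These are 23.1, 22.7 and 10.1 CPM against 9.81, 15.2 and 139 CPM. LPS replicate 1 was lower than every CON library, LPS replicate 2 lay among them, and LPS replicate 3 was 7.48 times their mean. The log2 fold change of 1.57 (SE 0.89, edgeR adjusted p = 0.506) became -0.55 without LPS replicate 3 (edgeR adjusted p = 0.662), and with limma-voom it was 0.80 over all libraries (adjusted p = 0.729).

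The spread inside the LPS group set ICAM1 and VCAM1 apart from the integrins. The highest LPS library exceeded the lowest 14.2 times for VCAM1 and 10.8 times for ICAM1, while in the CON group the same ratio was 2.30 and 1.53. A spread at least as wide within the LPS group occurred in 2.74% of tested genes for the VCAM1 value and 3.82% for the ICAM1 value. For CD44 the ratio was 5.87 (at least as wide in 9.05% of genes), for SELP 2.75 (30.8%), for ITGAL 2.05 (49.6%) and for ITGB2 1.67 (67.6%). LPS replicate 3 was the highest of the LPS libraries in 39.3% of all tested genes. The ratio of ICAM1 to VCAM1 reads was 2.07, 3.23 and 5.38 in the CON libraries and 6.87, 2.34 and 2.76 in the LPS libraries, with overlapping groups (log2 difference of 0.10, exact two-sided permutation p = 0.9). The endothelial marker list, 9 of 10 genes tested, had a summed level of 350 to 477 CPM in the CON group and 257 to 449 in the LPS group, and the lowest value, 257, was in LPS replicate 3. Single markers differed from the sum, since LYVE1 and ERG were highest in LPS replicate 3, at 43.2 and 15.6 CPM, and the part of endothelial content in the ICAM1 and VCAM1 values was not tested. No marker of the list found in the table was at 0 in all libraries.

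**Figure D2:**
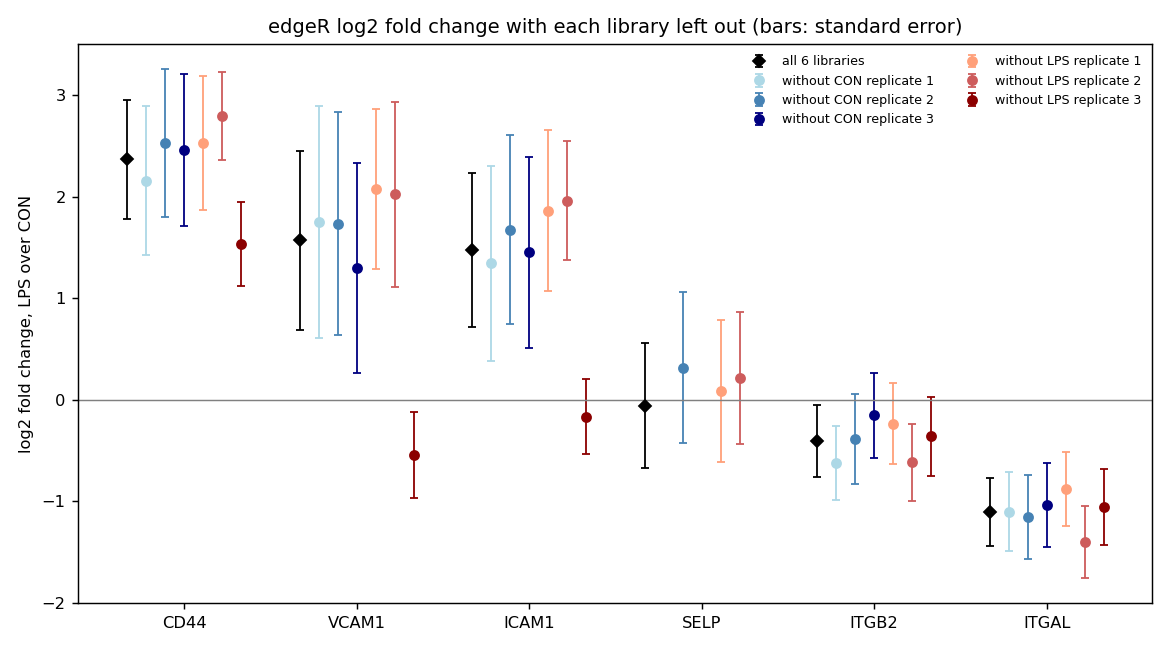
edgeR log2 fold change of LPS over CON for the 6 members, with all libraries (diamonds) and with each library left out in turn (circles), and bars for the SE. ICAM1 and VCAM1 drop below 0 when LPS replicate 3 is left out, while CD44 stays between 1.53 and 2.80 and ITGAL between -1.40 and -0.88 (SELP fell below the filter, and has no point, without CON replicate 1, CON replicate 3 or LPS replicate 3).

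SELP (ENSSSCG00000006288, chr4:81365740-81406203, plus strand, 16 exon blocks) encodes P-selectin, which endothelium and platelets store in granules. It was the rarest member, with 16, 15 and 9 counts in the CON libraries and 5, 5 and 33 in the LPS libraries. At 1.43, 2.34 and 0.890 CPM against 1.09, 0.818 and 2.25 CPM the groups overlapped, and the log2 fold change was -0.06 (SE 0.62, edgeR adjusted p = 0.983). Its sign changed with the library left out, and a difference was not detectable at this depth. Of its 5696 exonic bases, 298 (5.23%) also belong to the coagulation factor V gene F5 on the same strand, and how reads over both genes were counted was not given in the sources used here. F5 had far more reads, 4898, 1467 and 1497 in the CON and 242, 980 and 1400 in the LPS libraries. The platelet marker list was thin in the table, with 2 of 7 genes tested, and its sum was 15.5 to 29.5 CPM in the CON libraries and 12.9 to 35.8 CPM in the LPS libraries.

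ITGB2 (ENSSSCG00000025133, chr13:207512954-207544108, minus strand, 16 exon blocks) encodes the β2 chain shared by LFA-1, Mac-1 and related leukocyte integrins. It was read 1236, 1073 and 2138 times in the CON libraries and 432, 963 and 1725 times in the LPS libraries, or 110, 168 and 211 CPM against 94.2, 158 and 118 CPM. Its LPS libraries lay inside or just below the CON range (log2 fold change -0.41, SE 0.35, edgeR adjusted p = 0.676). ITGAL (ENSSSCG00000007797, chr3:17817011-17858057, minus strand, 32 exon blocks) is the α chain of LFA-1, carried by lymphocytes and other leukocytes. It had 1380, 728 and 1312 counts in the CON libraries and 175, 477 and 791 in the LPS libraries. The CON values were tight at 123, 114 and 130 CPM, and the LPS values were 38.2, 78.0 and 54.0 CPM. All LPS libraries were thus below all CON libraries, at 0.312, 0.638 and 0.442 times the CON mean.

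The log2 fold change of ITGAL was -1.11 (SE 0.34, unadjusted p = 0.00854, edgeR adjusted p = 0.244). DESeq2 with all libraries did not call it (-1.07, adjusted p = 0.102). Without LPS replicate 2, edgeR called it lower at -1.40 (SE 0.35, adjusted p = 0.0365), with 3.45% of tested genes lower in that fit. DESeq2 then gave -1.36 (adjusted p = 0.00431), with 5.3% lower. With any other library left out, ITGAL was not called by edgeR (adjusted p = 0.290 to 0.688) or by DESeq2 (adjusted p = 0.174 to 0.452). Within each library the ratio of ITGB2 to ITGAL reads does not depend on scaling. It was 0.896, 1.47 and 1.63 in the CON libraries and 2.47, 2.02 and 2.18 in the LPS libraries, without overlap (log2 difference 0.78, exact two-sided permutation p = 0.1, the smallest that 3 against 3 allows, and 0.2 adjusted over the 2 ratios tested). The T or NK cell list had 7 of 10 genes tested and none called. Its sum was 126 to 166 CPM in the CON group and 74.6, 136 and 153 CPM in LPS replicates 1, 2 and 3. LPS replicate 1 was also the library with the lowest ITGAL. In LPS replicates 2 and 3 the sum lay inside its CON range, while ITGAL was below all CON libraries. Single markers differed from the sum. Of the 7 tested, 5 had a log2 fold change below 0 and 2 above 0. CD2, like ITGAL, was lower in all LPS libraries than in any CON library, the only 1 of the 7 to be so. It was at 41.8, 37.0 and 53.1 CPM in the CON group and at 13.1, 28.1 and 36.9 CPM in the LPS group. In whole liver, fewer cells of a type and less RNA per cell cannot be told apart. The part of lymphocyte content in the ITGAL values was not tested.

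ITGAM, the α chain that pairs with ITGB2 to make Mac-1 on neutrophils and macrophages, was at 16.2, 15.6 and 36.7 CPM in the CON group and at 20.7, 36.3 and 30.2 CPM in the LPS group (log2 fold change 0.35, SE 0.41, edgeR adjusted p = 0.766). ITGA4, the α chain that binds VCAM-1, was lowest in LPS replicate 1 at 0.654 CPM (3 counts) and stood at 7.03 and 5.05 CPM in the other LPS libraries, against 7.42, 6.09 and 7.91 CPM in the CON group (log2 fold change -0.72, SE 0.61, edgeR adjusted p = 0.669). Its partner ITGB1, which most cells make, had a log2 fold change of 0.01 (SE 0.34, edgeR adjusted p = 0.996).

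CD44 (ENSSSCG00000013297, chr2:25788704-25884153, minus strand, 19 exon blocks) had the largest fold change of the 6 members. It was read 286, 283 and 403 times in the CON libraries and 681, 371 and 5221 times in the LPS libraries. That was 25.6, 44.2 and 39.8 CPM against 148, 60.7 and 356 CPM. Every LPS library was above every CON library, LPS replicate 2 by the smallest margin, at 1.66 times the CON mean, and LPS replicates 1 and 3 at 4.06 and 9.76 times. The group means were 36.5 ± 9.76 and 189 ± 152 CPM (SD, n = 3 each), a ratio of 5.16. The log2 fold change was 2.37 (SE 0.58, unadjusted p = 0.00239, edgeR adjusted p = 0.179).

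Unlike ICAM1 and VCAM1, CD44 kept its direction without LPS replicate 3, with a log2 fold change of 1.53 (edgeR adjusted p = 0.155). Without LPS replicate 2, edgeR called it at 2.80 (SE 0.43, adjusted p = 0.00498), with 3.76% of tested genes higher in that fit. DESeq2 called CD44 with all libraries (2.41, adjusted p = 0.00167) and with each library left out except CON replicate 1 (adjusted p = 0.0924). The share of all genes called higher in those fits was 0.608% without CON replicate 1, 0.91% without CON replicate 2, 1.26% without CON replicate 3, 0.817% without LPS replicate 1, 5.57% without LPS replicate 2 (adjusted p of CD44 6.50e-08) and 1.18% without LPS replicate 3. Of the 5970 exonic bases of CD44, 652 (10.9%) lie over exons of the glutamate transporter gene SLC1A2 on the opposite strand. The library kit keeps the strand, but whether the counting used it was not given in the sources used here. SLC1A2 itself was at 4.29, 3.91 and 7.71 CPM in the CON group and at 32.5, 5.73 and 22.6 CPM in the LPS group (log2 fold change 1.92, SE 0.59, edgeR adjusted p = 0.244), and what share of either count is common to both genes was not tested.

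Neutrophil markers were followed beside CD44. Of 13 listed, 10 were in the table, 8 were tested and 1 was called, S100A8, a calcium-binding protein abundant in neutrophils, with 4, 2 and 4 counts in the CON and 65, 31 and 376 in the LPS libraries (log2 fold change 5.34, edgeR adjusted p = 0.0371). The summed level of the list was 38.3 to 64.4 CPM in the CON libraries and 196, 114 and 355 CPM in LPS replicates 1, 2 and 3, the same order as CD44. The Kupffer cell or macrophage list, 9 of 10 genes tested, summed to 1909 to 3174 CPM in the CON group and to 1346 to 2270 CPM in the LPS group. The B or plasma cell list, 5 of 6 genes tested, summed to 18.7 to 69.6 CPM in the CON group and 11.8 to 27.6 CPM in the LPS group. Leukocytes, endothelium and other liver cells can all carry CD44, and the part of each in its level was not tested.

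**Figure D3:**
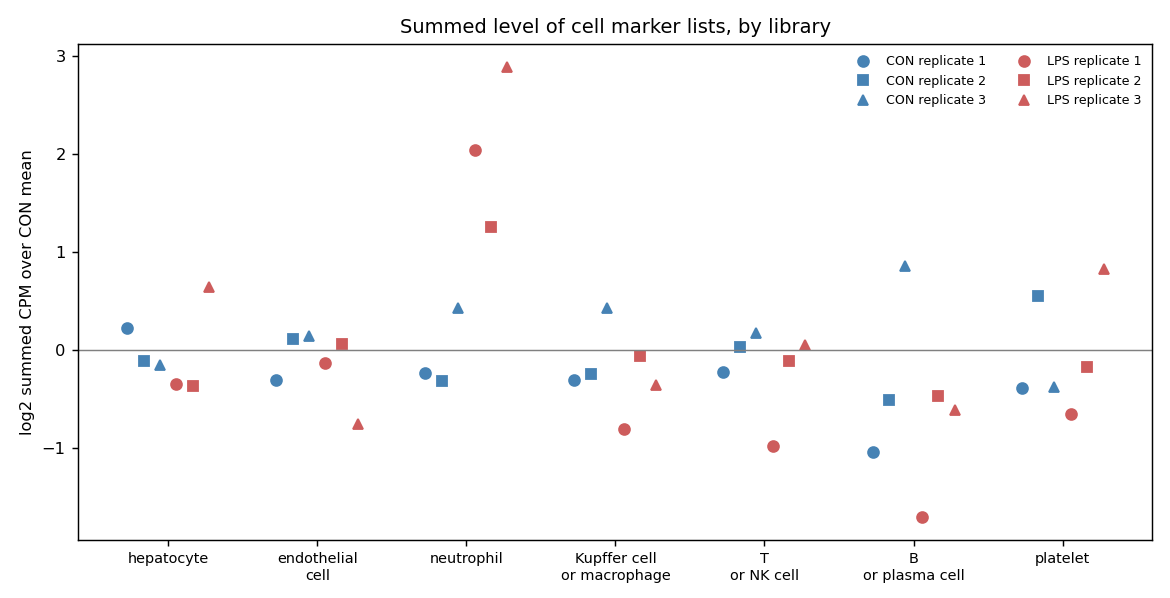
Summed CPM of 7 cell marker lists in each library, as log2 over the mean of the CON libraries. The neutrophil list is above every CON library in all 3 LPS libraries (114 to 355 CPM against 38.3 to 64.4), the endothelial list is lowest in LPS replicate 3, and the T or NK cell list is lowest in LPS replicate 1.

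The levels of different members can be compared only per length of transcript, here as CPM divided by the exonic length in kilobases. In the CON group ITGB2 was at 25.2 ± 7.83 CPM per kilobase (SD, n = 3), ICAM1 at 21.3 ± 4.81 and ITGAL at 19.7 ± 1.30, and these 3 neighbours did not differ beyond their spread. VCAM1 at 7.62 ± 3.03 and CD44 at 6.12 ± 1.63 formed a lower pair, also within their spread, and SELP was at 0.273 ± 0.129. Set among all tested genes of the CON group, ITGB2 stood above 89.4% of them, ICAM1 above 87.3%, ITGAL above 86.3%, VCAM1 above 69.4%, CD44 above 64.4% and SELP above 3.37%. In the LPS group the order of the mean levels was ICAM1 (59.1 ± 70.1 CPM per kilobase), CD44 (31.6 ± 25.4), VCAM1 (22.4 ± 30.0), ITGB2 (19.1 ± 4.96), ITGAL (9.15 ± 3.24) and SELP (0.244 ± 0.134). The first 4 overlapped, since the means of ICAM1, CD44 and VCAM1 rest mostly on LPS replicate 3. CD44 stood above 90.1% of tested genes and ITGAL above 72.0% in the LPS group.

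Ratios between members within a library gave a view that total depth and scaling cannot change. Of the 15 pairs of members, 5 had LPS ratios that did not overlap the CON ratios. The count was made after the data were seen and was not tested. The share of such pairs among other genes was not computed. Of these 5, 4 involved CD44, whose LPS libraries were all above the CON libraries by itself. The pairs share members, so the count is not separate from the CD44 values given above. The ratio of ITGAL to CD44 reads was 4.83, 2.57 and 3.26 in the CON libraries and 0.257, 1.29 and 0.152 in the LPS libraries. ITGAL reads outnumbered CD44 reads in every CON library and in LPS replicate 2, and CD44 outnumbered ITGAL in the other LPS libraries. The ratio of ITGB2 to CD44 reads was 4.32, 3.79 and 5.31 in the CON libraries and 0.634, 2.60 and 0.330 in the LPS libraries. The ratio of ICAM1 to CD44 reads, at 1.87, 1.66 and 1.36 against 0.454, 0.588 and 1.08, was lower in all LPS libraries, also in LPS replicate 3, where ICAM1 itself was highest.

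The wider adhesion cascade was taken from a list of 78 other genes, of which 67 were in the table and 60 were tested. By edgeR none was called, beside 0.0548% of all tested genes higher and 0% lower. At an unadjusted p below 0.05, 7 were higher (11.7%, against 6.18% of all tested genes) and 3 lower (5%, against 6.33%). The median log2 fold change of the list was -0.04, against 0.01 over all tested genes, with 29 above 0 and 31 below. The median was -0.19 for 10 endothelial ligands and junction proteins, 0.01 for 11 selectin-related genes, mostly ligands and the enzymes that build them, -0.09 for 10 other integrin chains, -0.21 for 13 genes of integrin activation, -0.07 for 3 linkers of the membrane to actin and 0.29 for 4 sheddases, the proteases that cut adhesion molecules off the surface.

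The highest median among these groups, a log2 fold change of 1.16, was that of 9 tested genes listed as hyaluronan genes and CD44 partners. At an unadjusted p below 0.05, 5 of them were higher (55.6%, against 6.18% of all tested genes) and 1 was lower (11.1%, against 6.33%). The genes so counted include ITIH1, ITIH3 and ITIH4, whose exons overlap, so they are not separate observations, and the share was not tested. CEMIP, which binds hyaluronan and takes part in its breakdown, was at 5.54, 6.09 and 3.26 CPM in the CON libraries and 21.8, 17.7 and 63.4 in the LPS libraries. All LPS libraries were above the CON libraries, and the log2 fold change was 2.80 (SE 0.54, edgeR adjusted p = 0.0982). ITIH4, an acute-phase plasma protein of the pig from the inter-α-trypsin inhibitor family and made by hepatocytes, was at 2062, 1885 and 2820 CPM in the CON libraries and 12626, 5574 and 11326 in the LPS libraries, again without overlap (log2 fold change 2.13, SE 0.41, edgeR adjusted p = 0.0982). Osteopontin (SPP1), a secreted ligand of CD44 and integrins, was at 15.9, 25.5 and 10.3 CPM against 39.5, 14.2 and 87.7, with LPS replicate 2 inside the CON range (log2 fold change 1.46, SE 0.60, edgeR adjusted p = 0.367). Without LPS replicate 2, edgeR called all of these genes, CEMIP at 3.12 (adjusted p = 0.00511), ITIH4 at 2.41 (adjusted p = 0.00654) and SPP1 (adjusted p = 0.0297), with 3.76% of tested genes higher. DESeq2 called CEMIP, ITIH3, ITIH4 and TNFAIP6 of the whole list, beside 1.85% of genes higher, and edgeR without LPS replicate 3 called CEMIP (2.01, adjusted p = 0.0453), beside 0.31%.

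**Figure D4:**
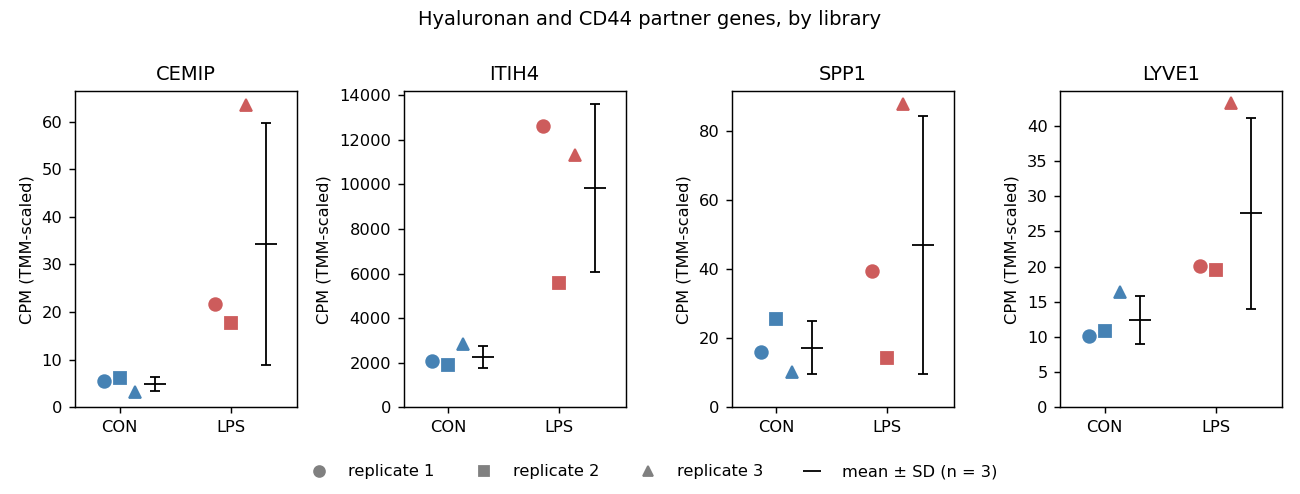
TMM-scaled CPM in each library of 4 genes from the list of hyaluronan genes and CD44 partners. Each panel has its own linear axis, with bars for the mean ± SD of 3 libraries. CEMIP, ITIH4 and LYVE1 are higher in all LPS libraries than in all CON libraries, while SPP1 in LPS replicate 2 lies among the CON values.

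ITIH3, whose protein is a heavy chain that can be transferred to hyaluronan, was at 9.47, 11.9 and 15.1 CPM in the CON libraries and 259, 6.22 and 312 in the LPS libraries. LPS replicate 2 was below every CON library and the other LPS libraries far above (log2 fold change 3.98, SE 1.06, edgeR adjusted p = 0.218, and 4.55 with an adjusted p of 0.000281 without LPS replicate 2). Of the 10072 exonic bases of ITIH3, 1392 (13.8%) lie over exons of ITIH4 on the opposite strand. A further limit is that 6064 lie over exons of ITIH1 on the same strand, so the ITIH3 value is uncertain. ITIH1, another heavy chain, was at 3.22, 4.53 and 5.24 CPM against 0.872, 1.64 and 0.683 (log2 fold change -2.05, SE 0.53, edgeR adjusted p = 0.199, and -2.50 with an adjusted p of 0.0290 without LPS replicate 2), but 97.7% of its exonic bases lie over exons of ITIH3 on the same strand, so its value is uncertain. Outside the rule for named genes, LYVE1, a hyaluronan receptor of sinusoidal and lymphatic endothelium, and TNFAIP6, which moves heavy chains onto hyaluronan, were singled out after their values were seen. LYVE1 was at 10.1, 10.8 and 16.3 CPM against 20.1, 19.5 and 43.2 (log2 fold change 1.16, SE 0.41, edgeR adjusted p = 0.293). TNFAIP6 fell below the edgeR filter, with 3, 1 and 0 counts in the CON libraries and 9, 1 and 109 in the LPS libraries. The hyaluronan synthases HAS1, HAS2 and HAS3 were all below the filter too.

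On the lower side, FUT7, the fucosyltransferase that completes selectin ligands in leukocytes, was at 1.79, 3.44 and 2.37 CPM in the CON libraries and 0.218, 1.15 and 0.888 in the LPS libraries (log2 fold change -1.65, SE 0.61, edgeR adjusted p = 0.326). JAM3, a junctional adhesion molecule and ligand of Mac-1, was at 9.12, 9.06 and 5.83 CPM against 2.62, 5.56 and 2.53 (log2 fold change -1.17, SE 0.44, edgeR adjusted p = 0.333). Both were lower in all LPS libraries than in any CON library, and neither passed the adjusted threshold.

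The genes whose levels across the 6 libraries were most like CD44, by the root mean square difference of log2 CPM over the CON mean, were SPSB1 (0.217), TNIP3 (0.301) and EMP1 (0.306). SPSB1, an adaptor of a ubiquitin ligase, was at 4.38, 5.94 and 6.92 CPM in the CON libraries and 28.8, 7.69 and 61.0 in the LPS libraries, with the same low LPS replicate 2 and high LPS replicate 3. The genes most like VCAM1 were INSIG1 (0.383), ANKRD13C (0.393) and ADAMTS6 (0.418). INSIG1, a sterol sensor partner of the endoplasmic reticulum, was at 247, 344 and 130 CPM against 158, 187 and 1022. The likeness describes these 6 libraries, which differ in depth and treatment, and has no test.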

How the data were processed

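Input RNA-seq libraries of the CON and LPS groups were analysed, 3 per group. The authors deposited 1 table of raw counts, reads per gene, with coordinates and exonic lengths. The submitters' processing notes name cutadapt 1.9.3 and HISAT2. The pig build and how strand or shared reads were counted were not given in the sources used here. Immunoprecipitation libraries were not analysed. CON replicates 1 and 2 have 2 sequencing entries each and 1 column each. No pair of libraries of the same group agreed within sampling noise, and pairs across the groups were not checked. Whether the libraries are from separate piglets is not stated for each, so p-values measure the spread between these libraries. Symbols matched 15029 of 31908 identifiers.

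Counts were fitted in R 4.3.3 with edgeR 4.0.16 (filterByExpr with a minimum count of 10, TMM scaling, robust quasi-likelihood test, Benjamini-Hochberg adjustment over 12774 genes). CPM are TMM-scaled, and SEs were derived as log2 fold change over the root of edgeR's F. DESeq2 1.42.0 and limma-voom (limma 3.58.1) were alternatives, with RLE factors, total counts, other filters on low counts, a block for the replicate number and leaving out each library. DESeq2 with each library left out and the ratios of all member pairs were added after the data were seen. Ratios with SELE or SELPLG could not be made. The script was tested on simulated data.

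The members and lists were chosen with earlier results of these data known. Named genes are the members, the partners ITGAM, ITGA4 and ITGB1, up to 4 list genes per direction by fold change among those with an unadjusted p below 0.05, and the 3 genes with a symbol and at least 1 CPM on average closest in pattern to CD44 and VCAM1. Some values are not reported here.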

Additional observations from a re-analysis of the deposited data

How the results depend on the processing

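The CD44 and ITGAL log2 fold changes kept their direction in every fit run, and those of ITGB2 stayed below 0. With RLE factors, no member was called and 1 gene was lower. With scaling to total counts, which moved the median log2 fold change of all genes to -0.12, 11 genes were higher, 1 was lower and no member was called. ICAM1 was then at 1.10 and VCAM1 at 1.14, against 1.48 and 1.57 with TMM scaling. The TMM factor was 0.735 for LPS replicate 3 and 0.979 to 1.11 for the other libraries. A factor below 1 raises CPM, so the size of the LPS replicate 3 values depends in part on the scaling. Without the filter on low counts, 536 genes were higher and 349 lower, CD44 (2.34), ICAM1 (1.45, adjusted p = 0.0145) and VCAM1 (1.55, adjusted p = 0.00483) were called, and 6 cascade genes were higher and 1 lower. The cause was not tested. With at least 10 counts in every library, 0 genes were higher by edgeR and SELP was not fitted. DESeq2 called 275 genes higher and 141 lower, among them CD44 (2.41) and 4 cascade genes, and gave VCAM1 no adjusted p. limma-voom called 2 genes higher and gave SELP 0.090, ICAM1 0.76 and VCAM1 0.80. Over the fits that left out 1 library, by edgeR or DESeq2, log2 fold changes ran from -0.17 to 1.99 for ICAM1, from -0.55 to 2.12 for VCAM1, from -1.40 to -0.85 for ITGAL, from 1.53 to 2.83 for CD44 and from -0.66 to 0.35 for SELP. ICAM1 and VCAM1 turned below 0 only without LPS replicate 3. Across these fits, edgeR called 0 to 512 genes higher and 0 to 470 lower, and 0 to 6 cascade genes higher and 0 to 1 lower, with the highest counts without LPS replicate 2.

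The replicate numbers are shared by both groups but come from different piglets. Deviations from the group means correlated at -0.22, 0.21 and 0.03 for numbers 1, 2 and 3, so the numbers do not pair the samples. With the replicate block, 42 genes were higher and 9 lower, 1 cascade gene (ITIH4) was called and no member was, with ICAM1 at 0.73 and VCAM1 at 0.44. Depth limits SELP, with 5 counts in LPS replicates 1 and 2, and the spread of 3 libraries per group limits ICAM1 and VCAM1.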
